A study of Mus musculus with 14 samples.

Results

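Ech1, Echdc2 and 7 further enzymes of fatty acid beta-oxidation (Ehhadh, Hadha, Hadhb, Acadm, Acadl, Acadvl and Decr1) were followed through mouse brain libraries in which Thap1, which encodes a zinc-finger transcription factor, had been conditionally knocked out. They are 9 of the 23337 gene symbols counted. Ech1 and Echdc2 were chosen because their counts differed between genotypes in these same libraries, so their genotype values are a description and carry no test. The other 7 were listed for their place in the pathway. The 4 groups were striatum from Thap1 conditional knockout (cKO) mice with 3 libraries, striatum from wildtype (WT) mice with 3, cerebellum from cKO mice with 4, and cerebellum from WT mice with 4. All mice were on the C57Bl/6 background and 6 months old, and the WT mice were littermates. RNA was extracted from microdissected tissue. The Cre driver, and so the cell types in which Thap1 was deleted, and the deleted part of the gene are left unstated by the labels. Whether every library stands for its own animal is also unstated, so each p-value reflects variation among libraries that may be technical.

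Beta-oxidation shortens fatty acids bound to coenzyme A by repeated rounds of dehydrogenation, hydration, a further dehydrogenation and thiolytic cleavage, in mitochondria for most chain lengths and in peroxisomes for very long and some unusual chains. Double bonds already present in a fatty acid have to be moved or removed by auxiliary enzymes before the cycle can go on, and Ech1 and Decr1 encode such enzymes. In brain the pathway is best known from astrocytes, while neurons rely mainly on glucose. THAP1 binds DNA through its zinc finger, and mutations in human THAP1 cause an inherited dystonia.

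Library totals ran from 12659013 to 14258141 counts in striatal cKO and from 12595941 to 13499875 in striatal WT libraries, and from 19860775 to 28099205 in cerebellar cKO and from 19458954 to 24331760 in cerebellar WT libraries. Levels are given as CPM, counts scaled to a common library size with TMM factors over all 14 libraries. Thap1 itself had 77, 101 and 48 counts in striatal cKO and 162, 195 and 192 in striatal WT libraries, which did not overlap. In cerebellum it had 148, 162, 192 and 192 counts in cKO and 206, 159, 231 and 201 in WT libraries. Scaled for depth, Thap1 stood at 38.9% of WT in striatum and at 78.3% in cerebellum, with no overlap in CPM between genotypes in either tissue. An exact permutation test (two-sided) of Thap1 CPM gave p = 0.1 for striatum and p = 0.0286 for cerebellum, the minimum possible with these numbers of libraries. EdgeR's log2 fold change was −1.36 in striatum (adjusted p = 0.0562) and −0.34 in cerebellum (adjusted p = 0.0488), and the difference between the tissues was −1.01 and did not pass (adjusted p = 0.0884). Striatal WT replicate 1 stood apart: its counts differed from the other striatal WT libraries by 28.6 and 28.2 in chi-square divided by its degrees of freedom, against 6.79 between those libraries and 6.18 to 12.1 in all other pairs of the same group. Marker genes of the dissected regions summed to between 9640 and 11900 CPM for the striatal list in striatal libraries, against 338 to 410 CPM in cerebellar ones. The cerebellar list summed to between 389 and 506 CPM in striatal libraries and between 7050 and 8250 CPM in cerebellar ones, so both tissue labels fitted their markers.

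Ech1, a dienoyl-CoA isomerase of mitochondria and peroxisomes, was depleted in cKO libraries of both tissues. It had 68, 69 and 53 counts in striatal cKO and 352, 589 and 556 in striatal WT libraries. In cerebellum it had 205, 165, 221 and 185 counts in cKO and 994, 866, 1062 and 1121 in WT libraries. The gene lies on the plus strand at chr7:28825217-28832247 (GRCm38, mm10). The sequence around its start is shown because short motifs recur there, with capitals marking matches to TNNGGGCA, the core reported for THAP1, and to GCCATNTT, the core of the YY1 motif, on either strand. The RefSeq window on the plus strand of GRCm38.p6, from 250 bases before the start to 50 after it, was chr7:28825088-28825387.
Ech1 promoter: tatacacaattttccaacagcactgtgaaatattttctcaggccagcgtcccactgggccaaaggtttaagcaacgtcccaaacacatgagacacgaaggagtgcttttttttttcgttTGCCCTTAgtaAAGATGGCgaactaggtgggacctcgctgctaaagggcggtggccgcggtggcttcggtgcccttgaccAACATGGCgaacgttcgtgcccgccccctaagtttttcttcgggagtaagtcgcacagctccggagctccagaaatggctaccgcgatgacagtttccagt

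The THAP1 core matched the minus strand from 131 to 124 bases before the RefSeq start (TAAGGGCA). A YY1 core followed on the same strand at 120 to 113 bases (GCCATCTT), after 3 intervening bases, and another lay at 51 to 44 bases (GCCATGTT). These distances hold for the RefSeq start only, which lies inside the GENCODE gene given above. The stretch chr7:28825199-28825233, with the THAP1 core and the YY1 core that followed it, spans the GENCODE start at 28825217. Over the 17570 genes with such a window, 15.9% held the THAP1 core, 7.54% the YY1 core and 1.1% both. Windows of 300 bases were found for 8 of the 9 genes, Decr1 being without one. Apart from Ech1, Acadvl was the member with a match, a THAP1 core (TTTGGGCA) from 42 to 49 bases after its start. The window of Echdc2, chr4:108165187-108165486 on the plus strand of GRCm38.p6, is shown beside that of Ech1 because neither motif was found in it.
Echdc2 promoter: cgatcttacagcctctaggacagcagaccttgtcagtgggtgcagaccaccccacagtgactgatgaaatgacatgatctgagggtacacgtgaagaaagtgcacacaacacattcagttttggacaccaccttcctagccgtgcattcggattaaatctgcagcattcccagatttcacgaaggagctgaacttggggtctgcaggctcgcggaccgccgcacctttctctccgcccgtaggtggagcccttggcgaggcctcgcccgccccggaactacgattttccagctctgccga

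A match to such letters describes the sequence and was not tested as a binding site, and the absence of one says only that these letters do not occur in this window.

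In striatum Ech1 measured 4.94, 5.57 and 4.44 CPM in cKO libraries and 30.4, 46.4 and 47.4 CPM in WT libraries. The cKO libraries lay far below every WT library, and the lowest WT value was that of replicate 1. The means were 4.98 ± 0.563 CPM in cKO and 41.4 ± 9.53 CPM in WT (SD, n = 3 each), which put striatal cKO at 12% of WT. In cerebellum Ech1 measured 9.63, 7.20, 8.51 and 6.28 CPM in cKO libraries and 47.5, 42.5, 46.2 and 44.3 CPM in WT libraries. The groups were again well separated, with means of 7.90 ± 1.47 CPM in cKO and 45.2 ± 2.18 CPM in WT (SD, n = 4 each), or 17.5% of WT. The log2 fold change of cKO over WT was −3.05 (SE 0.200) in striatum and −2.51 (SE 0.103) in cerebellum, and −3.23 (SE 0.115) in striatum without WT replicate 1. Some Ech1 RNA remained in every cKO library, and the residual level was 10.7% to 13.4% of the WT mean in the striatal and 13.9% to 21.3% in the cerebellar cKO libraries.

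**Figure D1:**
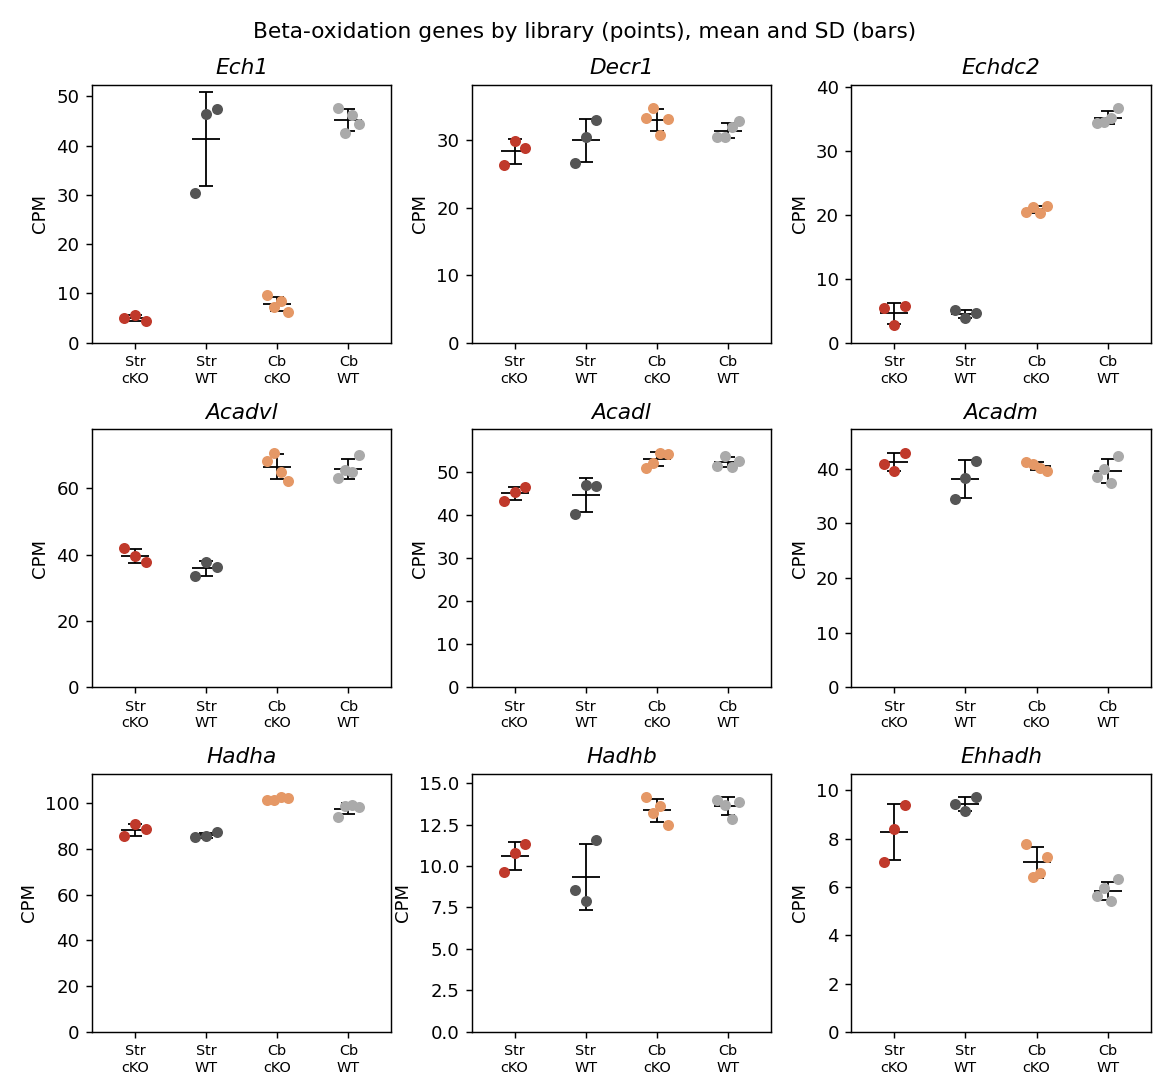
CPM of each of the 9 genes in every library (points) with the group mean and SD (bars), for striatum (Str) and cerebellum (Cb), cKO left of WT. Ech1 was lower in all cKO libraries of both tissues, Echdc2 was lower in all cerebellar cKO libraries, and most other panels show overlapping genotypes.

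The fall of Ech1 was set beside its neighbours on chromosome 7. Hnrnpl, which encodes a splicing regulator and ends 2950 bases upstream on the same strand, measured 177, 177 and 193 CPM in striatal cKO and 169, 185 and 187 CPM in striatal WT libraries, with overlapping groups (log2 fold change 0.01, adjusted p = 0.967, edgeR). In cerebellum Hnrnpl measured 158, 155, 159 and 159 CPM in cKO and 176, 171, 180 and 175 CPM in WT libraries, a fall of 0.14 on the log2 scale (SE 0.029, adjusted p = 0.00518). Lgals4, which encodes a galectin and starts 1606 bases downstream, was too low to be tested. It had 2, 0 and 0 counts in striatal cKO and 5, 3 and 8 in striatal WT libraries, and 0, 3, 2 and 2 counts in cerebellar cKO and 4, 6, 5 and 4 in cerebellar WT libraries. Scaled for depth, every cKO library lay below every WT library of its tissue at these few counts.

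Echdc2 encodes a predicted mitochondrial member of the enoyl-CoA hydratase (crotonase) family and lies at chr4:108165437-108179308 on the plus strand. In striatum it was scarce in both genotypes, with 75, 34 and 68 counts in cKO and 59, 49 and 55 in WT libraries, or 5.45, 2.74 and 5.70 CPM in cKO and 5.10, 3.86 and 4.69 CPM in WT. The groups overlapped, with means of 4.63 ± 1.64 CPM in cKO and 4.55 ± 0.629 CPM in WT (SD, n = 3 each). In cerebellum Echdc2 measured 20.5, 21.3, 20.2 and 21.4 CPM in cKO libraries and 34.4, 34.5, 35.1 and 36.6 CPM in WT libraries. All cKO libraries lay below all WT libraries there, with means of 20.8 ± 0.58 CPM in cKO and 35.1 ± 1.03 CPM in WT (SD, n = 4 each), so that the cKO level was 59.3% of WT. The log2 fold change was 0.03 (SE 0.283) in striatum and −0.74 (SE 0.048) in cerebellum. Scp2, which encodes a peroxisomal thiolase and sterol carrier protein and lies 20438 bases away on the opposite strand, had log2 fold changes of 0.10 in striatum (adjusted p = 0.822, edgeR) and 0.05 in cerebellum (adjusted p = 0.514). Zyg11a, on the other side and 2429 bases away on the opposite strand, was too low to be tested, with 0 counts in every striatal library, 2, 1, 1 and 1 in cerebellar cKO and 2, 6, 3 and 2 in cerebellar WT libraries. The cerebellar groups overlapped.

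Ech1 and Echdc2 were the members called at an adjusted p under 0.05, 1 of 9 in striatum and 2 of 9 in cerebellum, where 0.384% and 7.59% of all genes tested were called. By direction, 0.0639% were higher and 0.32% lower in striatal cKO, and 2.63% higher and 4.96% lower in cerebellar cKO. Ech1 and Echdc2 had been picked on that contrast, so nothing is read from these counts. Among the 7 genes listed for the pathway, edgeR called 0 in either tissue, as did DESeq2 and limma-voom. A count of 0 of 7 is not set apart from those backgrounds. At an unadjusted p under 0.05 edgeR had 0 of the 7 in striatum, beside 1020 of 14080 genes tested. In cerebellum it had 2 of the 7, beside 3327 of 14775. The median log2 fold change of the 7 was 0.04 in both tissues, beside 0.00 over all genes tested in each.

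**Figure D2:**
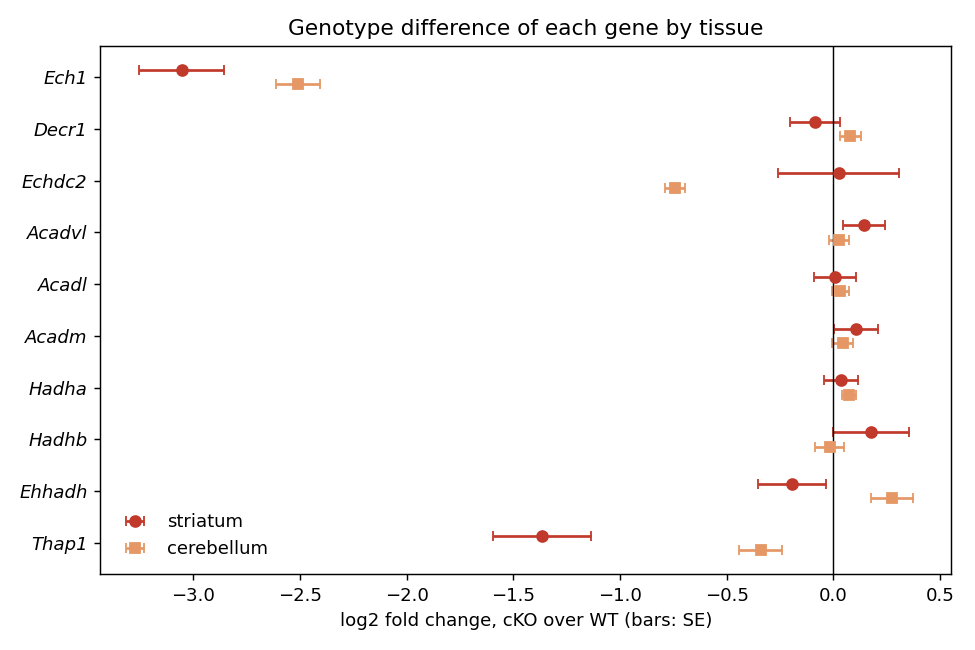
Log2 fold change of cKO over WT for the 9 genes and Thap1, with SE bars, in striatum (circles) and cerebellum (squares). Ech1 stands at −3.05 and −2.51 and Echdc2 at −0.74 in cerebellum, while the other 7 genes lie between −0.19 and 0.28.

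Decr1, the mitochondrial dienoyl-CoA reductase that acts on the same class of polyunsaturated substrates as Ech1, overlapped between genotypes in both tissues. It measured 26.3, 29.8 and 28.9 CPM in striatal cKO and 26.6, 30.4 and 33.0 CPM in striatal WT libraries, and 33.3, 34.7, 30.8 and 33.2 CPM in cerebellar cKO and 30.5, 30.5, 32.0 and 32.8 CPM in cerebellar WT libraries. Decr1 lies at chr4:15917240-15945507 on the minus strand. The 95% interval of its log2 fold change was −0.31 to 0.14 in striatum (adjusted p = 0.851, edgeR) and −0.02 to 0.18 in cerebellum (adjusted p = 0.365).

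The acyl-CoA dehydrogenases carry out the first step of the mitochondrial cycle on very long chains (Acadvl), long chains (Acadl) and medium chains (Acadm). Acadvl measured 41.9, 39.6 and 37.7 CPM in striatal cKO and 33.4, 37.9 and 36.4 CPM in striatal WT libraries, and 68.4, 70.7, 65.0 and 62.2 CPM in cerebellar cKO and 63.0, 65.4, 64.8 and 70.1 CPM in cerebellar WT libraries. Its interval ran from −0.05 to 0.34 in striatum (adjusted p = 0.78, edgeR) and from −0.07 to 0.12 in cerebellum (adjusted p = 0.801). Acadvl shares 1151 exon bases with Dvl2 on the opposite strand, and as the strand setting of the counting is not given in the sources used here, its counts are uncertain. Acadvl lies at chr11:70010183-70015411, Acadl at chr1:66830839-66863277 and Acadm at chr3:153922357-153944632, all on the minus strand. Acadl averaged 45.1 ± 1.57 CPM in striatal cKO and 44.7 ± 3.85 CPM in striatal WT, and 53.0 ± 1.65 CPM in cerebellar cKO and 52.3 ± 1.17 CPM in cerebellar WT (SD, n = 3, 3, 4 and 4). Acadm averaged 41.2 ± 1.63 CPM in striatal cKO and 38.1 ± 3.52 CPM in striatal WT, and 40.4 ± 0.717 CPM in cerebellar cKO and 39.5 ± 2.15 CPM in cerebellar WT. The genotypes overlapped for all 3 dehydrogenases in both tissues. The intervals of Acadl were −0.19 to 0.21 in striatum (adjusted p = 0.985, edgeR) and −0.05 to 0.11 in cerebellum (adjusted p = 0.688), and those of Acadm −0.09 to 0.31 (adjusted p = 0.813) and −0.05 to 0.14 (adjusted p = 0.64).

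Hadha and Hadhb encode the alpha and beta subunits of the mitochondrial trifunctional protein, which performs the later steps on long chains. The genes stand head to head on chromosome 5, 85 bases apart, Hadha at chr5:30118304-30155162 on the minus strand and Hadhb at chr5:30155248-30184593 on the plus strand, and their start windows share 228 bases. Hadha measured 85.5, 91.0 and 88.7 CPM in striatal cKO and 85.4, 85.5 and 87.2 CPM in striatal WT libraries. In cerebellum it measured 101, 102, 103 and 102 CPM in cKO and 94.2, 98.7, 99.5 and 98.5 CPM in WT libraries, so every cKO library was slightly above every WT library. That cerebellar log2 fold change of 0.07 (SE 0.032, adjusted p = 0.177, edgeR) did not pass, and neither did the striatal one of 0.04 (SE 0.079, adjusted p = 0.91). Hadhb measured 9.67, 10.8 and 11.3 CPM in striatal cKO and 8.55, 7.88 and 11.6 CPM in striatal WT libraries. In cerebellum it had 14.1, 13.2, 13.6 and 12.4 CPM in cKO and 14.01, 13.7, 12.8 and 13.9 CPM in WT libraries. Both pairs of groups overlapped, with log2 fold changes of 0.18 in striatum (SE 0.178, adjusted p = 0.819, edgeR) and −0.02 in cerebellum (SE 0.068, adjusted p = 0.924). RefSeq lists a Hadhb pseudogene, so Hadhb counts could be split between copies, and Hadha shares 75 exon bases with Fam59b on the opposite strand.

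Ehhadh encodes the peroxisomal bifunctional enzyme, which joins hydratase and dehydrogenase activities, and lies at chr16:21761287-21787807 on the minus strand. It measured 7.05, 8.39 and 9.39 CPM in striatal cKO and 9.42, 9.14 and 9.71 CPM in striatal WT libraries, with overlapping groups and a difference of −0.19 in log2 (SE 0.158, adjusted p = 0.788, edgeR). In cerebellum it measured 7.80, 6.42, 6.59 and 7.26 CPM in cKO and 5.64, 5.94, 5.44 and 6.33 CPM in WT libraries. All cerebellar cKO libraries were above all WT libraries, but the log2 fold change of 0.28 (SE 0.098) did not pass over all genes (adjusted p = 0.103, edgeR). In cerebellum Ehhadh and Hadha were thus higher in cKO without overlap, as were 5.06% of all genes tested, and Ech1 and Echdc2 were lower without overlap, as were 9.35%. In striatum Ech1 was lower without overlap, as were 7.97% of all genes, and no member was higher without overlap, against 7.05%.

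Markers of mature oligodendrocytes moved with genotype in the same libraries. All 12 of the list had negative log2 fold changes in both tissues, with a median of −0.79 in striatum, where 4 fell (Mal, Cldn11, Ermn and Mobp by edgeR, 11 genes by DESeq2 and 12 by limma-voom), and of −0.23 in cerebellum, where 7 fell by edgeR. With all 14 libraries in 1 model, 12 were called in striatum, and in cerebellum only Mal was, while DESeq2 and limma-voom called 9 and 8 there. Over all genes tested, edgeR called 0.384% in striatum and 7.59% in cerebellum. DESeq2, limma-voom and the model of all 14 libraries each called more genes than edgeR in striatum, and that model called fewer in cerebellum. The striatal minus the cerebellar log2 fold change was negative for all 12, with a median of −0.57 and a range of −0.72 to −0.35. The test of this difference called 2 of the 12, beside 0.39% of all genes. They were Mal, a myelin proteolipid (−0.70, SE 0.122, adjusted p = 0.0229, edgeR), and Ugt8a. The summed level of the 12 was 5090 to 6310 CPM in striatal cKO and 7980 to 9750 CPM in striatal WT libraries, and 4330 to 4880 CPM in cerebellar cKO and 5010 to 5530 CPM in cerebellar WT libraries, and none of the 12 was at 0. The 12 astrocyte markers summed to 8100 to 8550 CPM in striatal cKO and 7660 to 8680 CPM in striatal WT, and to 7250 to 7830 CPM in cerebellar cKO and 7300 to 7830 CPM in cerebellar WT. None of them passed in striatum by edgeR, with Gfap and Aqp4 at an unadjusted p under 0.05. Striatal Gfap, an intermediate filament of astrocytes, nonetheless measured 193, 266 and 147 CPM in cKO and 79.7, 42.6 and 80.8 CPM in WT libraries, without overlap and at 298% of WT (log2 fold change 1.58, SE 0.271, adjusted p = 0.0593, edgeR). Striatal Aqp4, a water channel, measured 185, 214 and 178 CPM in cKO and 145, 112 and 134 CPM in WT libraries, also without overlap (log2 fold change 0.56, adjusted p = 0.136, edgeR). DESeq2 and the model of all 14 libraries called both of them in striatum and limma-voom called Aqp4. In cerebellum Gfap (log2 fold change 0.81), Gja1 and Aqp4 rose and S100b and Slc1a3 fell by edgeR, and of these 5 the model of all 14 libraries called only Aqp4. EdgeR called 0 genes of the microglial, endothelial and pericyte, and neuronal lists in either tissue. At an unadjusted p under 0.05 these lists had 0 genes each in striatum by edgeR, beside 1020 of 14080 genes tested. In cerebellum they had 2 of 10, 1 of 10 and 5 of 8, beside 3327 of 14775. DESeq2 called 3 neuronal genes in cerebellum and limma-voom called 2 neuronal and 1 microglial. Both tools called 0 of them in striatum. Of the cerebellar dissection list Fat2, a protocadherin of granule cells, fell in cerebellum (log2 fold change −0.27, adjusted p = 0.00552, edgeR), where DESeq2 called 3 of the list, limma-voom 2 and the model of all 14 libraries 0. Of the choroid plexus and ependymal list edgeR, DESeq2 and limma-voom called 0 genes, with 1 and 3 at an unadjusted p under 0.05 in striatum and cerebellum by edgeR, and its summed level was 105 to 265 CPM in striatal cKO, 81.9 to 101 CPM in striatal WT, 724 to 3430 CPM in cerebellar cKO and 48.7 to 2120 CPM in cerebellar WT libraries. The part of these cell types in the levels of Ech1 and Echdc2 was not tested. In such bulk libraries fewer cells of a type and less RNA per cell cannot be told apart.

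Whether the genotype differences themselves differed between tissues was tested as an interaction, the striatal minus the cerebellar log2 fold change. It was −0.53 for Ech1 (SE 0.234, adjusted p = 0.402, edgeR), 0.79 for Echdc2 (SE 0.228, adjusted p = 0.178) and −0.45 for Ehhadh (SE 0.165, adjusted p = 0.292). EdgeR called 0 of the 9 genes, against 0.39% of all genes (0.149% with a positive and 0.24% with a negative difference). Ech1, Echdc2 and Ehhadh had an unadjusted p under 0.05 by edgeR, as did 1793 of the 15401 genes tested. DESeq2 called Echdc2 (adjusted p = 0.0104), limma-voom none. Without striatal cKO replicate 2, the library with the fewest Echdc2 counts, the interaction of Echdc2 was 1.05 and passed (adjusted p = 0.00493, edgeR). Since Ech1 and Echdc2 were chosen on their genotype differences, this contrast is not independent of the choice.

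Between the tissues of WT mice most of the genes differed. In WT libraries 6 of 9 were called between striatum and cerebellum, close to the 64.2% of all genes. Of the 9, 1 was higher and 5 were lower in striatum, against 31.5% and 32.7% of all genes. Ehhadh was higher in striatum, at 9.42 ± 0.284 CPM (SD, n = 3) against 5.84 ± 0.386 CPM in cerebellum (SD, n = 4), or 0.69 on the log2 scale (SE 0.114, adjusted p = 0.000465, edgeR). Echdc2 had the lowest striatal level relative to cerebellum, at 4.55 ± 0.629 CPM in striatum and 35.1 ± 1.03 CPM in cerebellum, or −2.95 on the log2 scale (SE 0.114, adjusted p = 1.77e-08). Acadvl was lower in striatum at 35.9 ± 2.28 CPM, against 65.8 ± 2.99 CPM in cerebellum (log2 fold change −0.87, adjusted p = 4.74e-06, edgeR), and so was Hadhb at 9.34 ± 1.97 CPM, against 13.6 ± 0.53 CPM (log2 fold change −0.54, adjusted p = 0.00642). Hadha and Acadl were lower by smaller amounts, with log2 fold changes of −0.18 (adjusted p = 0.0217, edgeR) and −0.22 (adjusted p = 0.0241). The call of Hadha was lost without striatal WT replicate 2 or cerebellar WT replicate 3 (adjusted p = 0.0559 and 0.0506, edgeR), and that of Acadl without cerebellar WT replicate 2 or 4 (adjusted p = 0.0627 and 0.0591). Ech1, Acadm and Decr1 did not pass, with 95% intervals of −0.39 to 0.14, −0.21 to 0.11 and −0.23 to 0.10. The striatal and cerebellar libraries also differed in depth, so tissue and library set cannot be told apart.

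Levels of different genes were compared per kilobase of exon in the GENCODE annotation. In WT libraries Ech1 was among the more abundant of the 9, at 18.1 ± 4.17 CPM per kb in striatum, where it ranked 2, and 19.8 ± 0.957 in cerebellum, where it ranked 3. With this length Acadl ranked first in every group, at 22.5 CPM per kb in striatal cKO, 22.3 in striatal WT, 26.4 in cerebellar cKO and 26.1 in cerebellar WT. Its libraries overlapped those of Acadvl, ranked second, in cerebellar cKO. In cKO libraries Ech1 ranked 7 in both tissues, at 2.18 ± 0.246 CPM per kb in striatum and 3.46 ± 0.644 in cerebellum. Its striatal cKO libraries overlapped those of Ehhadh above and Echdc2 below it in that order, while its cerebellar cKO libraries overlapped neither neighbour, Decr1 or Ehhadh. In striatal WT the neighbours in that order whose libraries overlapped were Acadl with Ech1, Ech1 with Acadvl, Hadha with Acadm, and Echdc2 with Hadhb. In cerebellar WT they were Acadl with Acadvl, Hadha with Acadm and Hadhb with Ehhadh. Hadha stood at 9.86 and 11.2 CPM per kb in striatal and cerebellar WT and Hadhb at 1.42 and 2.06, but reads of Hadhb could be split with its pseudogene, and the part of that in this gap was not tested. With the longest transcript of each gene in place of all exons, Ech1 ranked 1 in both WT groups and 6 in striatal cKO, and Acadvl stood above Acadl in cerebellar cKO, at 30.7 against 27.7 CPM per kb. The order of these genes thus depends on the length used.

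**Figure D3:**
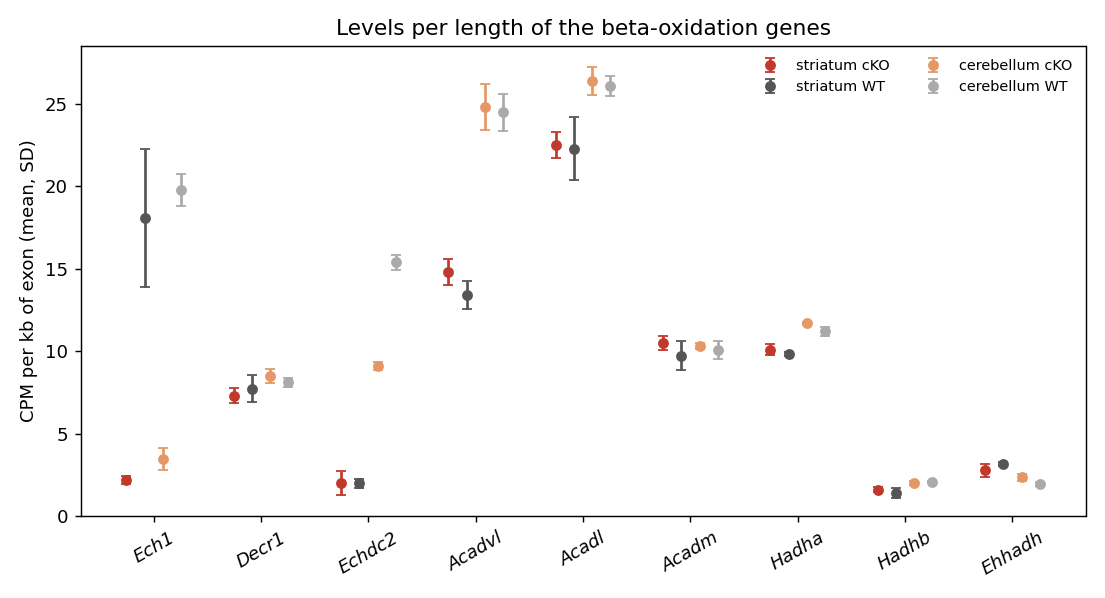
Mean level per kilobase of exon (CPM per kb, bars SD) of the 9 genes in striatal cKO, striatal WT, cerebellar cKO and cerebellar WT libraries. Ech1 ranks 2 and 3 in striatal and cerebellar WT libraries and 7 of 9 in both cKO groups.

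The rest of the pathway was described by 9 lists. In striatum edgeR, DESeq2 and limma-voom called 0 of the 79 listed genes tested, where edgeR called 0.384% of all genes. At an unadjusted p under 0.05 edgeR had 4 of the 79 in striatum, beside 1020 of all 14080 genes tested. The same cutoff took in 3327 of all 14775 genes tested in cerebellum. In cerebellum edgeR called 6 of 80, or 7.5%, beside 7.59% of all genes, so the lists were not set apart from the background. The median log2 fold change over the lists was 0.07 in striatum and 0.04 in cerebellum, beside 0.00 over all genes in each.

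The 12 other enzymes of the mitochondrial cycle had a median of 0.15 in striatum with 0 called, and of 0.02 in cerebellum with 1 called. That gene was Acat1, a mitochondrial acetoacetyl-CoA thiolase, at 104, 109, 103 and 109 CPM in cerebellar cKO and 99.5, 98.1, 94.5 and 99.2 CPM in cerebellar WT libraries, which did not overlap (log2 fold change 0.13, adjusted p = 0.0256, edgeR). The 3 genes of the electron transfer flavoprotein chain, which takes up the electrons of the dehydrogenases, and the 6 genes tested of the carnitine shuttle, which brings fatty acids into mitochondria, had 0 called in either tissue, with medians of 0.17 and 0.03 in striatum and 0.06 and 0.02 in cerebellum. The 5 long-chain acyl-CoA synthetases, which activate fatty acids, likewise had 0 called, with medians of −0.08 in striatum and 0.07 in cerebellum. In these 3 lists together DESeq2 and limma-voom also called 0, and at an unadjusted p under 0.05 edgeR had 0 genes in striatum and 2 in cerebellum.

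Of the other peroxisomal enzymes and transporters, with medians of 0.06 over 14 genes in striatum and 0.05 over 15 in cerebellum, 1 was called. It was Abcd2, a peroxisomal importer of very long-chain acyl-CoA, at 106, 112, 102 and 113 CPM in cerebellar cKO and 92.1, 93.1, 102 and 104 CPM in cerebellar WT libraries, which overlapped (log2 fold change 0.16, adjusted p = 0.0436, edgeR). Of 15 peroxisome biogenesis genes in the table Pex7, a receptor for peroxisomal import, rose in cerebellum, at 30.5, 32.6, 31.7 and 33.6 CPM in cKO and 23.4, 27.6, 26.6 and 28.03 CPM in WT libraries (log2 fold change 0.29, adjusted p = 0.00499, edgeR). The list's medians were 0.08 in striatum and −0.03 in cerebellum. Among 9 other crotonase family genes, relatives of Ech1 and Echdc2, Cdyl2, a chromodomain protein, rose in cerebellum (log2 fold change 0.19, adjusted p = 0.0334, edgeR), and the medians were 0.07 in striatum and 0.09 in cerebellum.

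The 9 regulators of fatty acid oxidation genes had medians of −0.03 in striatum over 8 tested and 0.00 in cerebellum, with 0 called by edgeR, DESeq2 or limma-voom and 1 at an unadjusted p under 0.05 by edgeR in each tissue. Among PPAR-responsive genes outside the oxidation enzymes, 2 changed in cerebellum in opposite directions. Acot1, a cytosolic acyl-CoA thioesterase, measured 8.13, 8.42, 9.40 and 9.84 CPM in cerebellar cKO and 5.88, 4.67, 4.96 and 5.69 CPM in cerebellar WT libraries, a rise of 0.77 on the log2 scale (SE 0.102, adjusted p = 0.000149, edgeR). In striatum it measured 10.5, 11.8 and 11.2 CPM in cKO and 4.58, 6.70 and 7.92 CPM in WT libraries, without overlap, but did not pass (log2 fold change 0.80, adjusted p = 0.26, edgeR). Acot1 is a close copy of its relative Acot2, so its counts are uncertain. Plin2, a lipid droplet coat protein, measured 8.60, 9.03, 9.55 and 9.57 CPM in cerebellar cKO and 14.2, 13.5, 14.2 and 17.1 CPM in cerebellar WT libraries, and fell by 0.67 on the log2 scale (SE 0.084, adjusted p = 9.62e-05, edgeR). In striatum it measured 5.67, 9.84 and 6.87 CPM in cKO and 5.53, 7.49 and 7.41 CPM in WT libraries, and the groups overlapped (log2 fold change 0.12, adjusted p = 0.892, edgeR). The difference of Plin2 between the tissues did not pass by edgeR (0.81, SE 0.226, adjusted p = 0.158) or limma-voom, but was called by DESeq2. With all 14 libraries in 1 model, Acot1 and Plin2 kept their cerebellar calls and the calls of Acat1, Abcd2, Pex7 and Cdyl2 were lost. In striatum that model called Acot1 and Nr1h3, a nuclear receptor of sterol metabolism. Leaving out single cerebellar libraries lost the call of Abcd2 in 6 of 8 cases, of Cdyl2 in 5 and of Acat1 in 3.

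**Figure D4:**
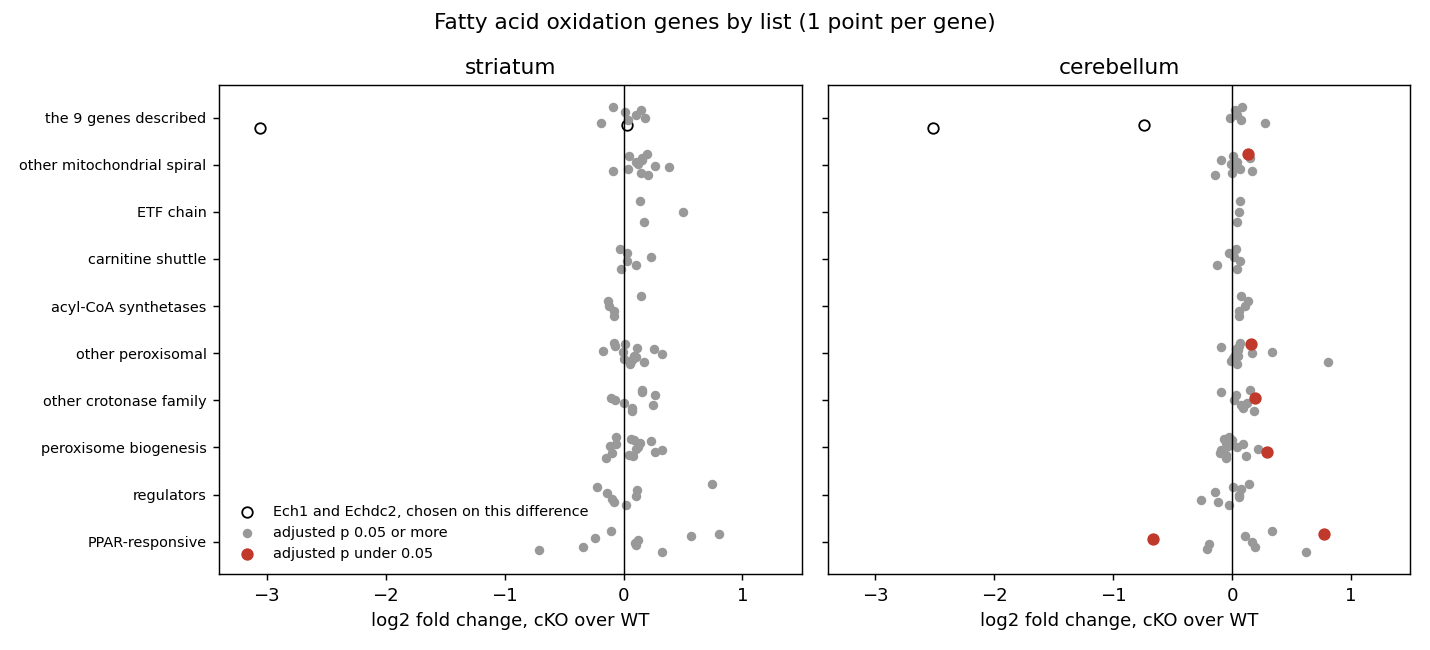
Log2 fold change of cKO over WT in striatum (left) and cerebellum (right), with 1 point per gene and 1 row per list. Open circles are Ech1 and Echdc2, red points are genes with an adjusted p under 0.05 (edgeR), and nearly all others lie close to 0.

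The genes whose levels followed Ech1 most closely were found from Pearson's r of log2 CPM, centred on the mean of each tissue, over 14 libraries and 13684 genes. The libraries fall into cKO and WT clusters, so r served only to choose genes. They included Cuedc2 (r = 0.986), which encodes a CUE-domain protein, Cradd (0.985), an adaptor of caspase-2 activation, Cln3 (0.979), a lysosomal membrane protein mutated in human Batten disease, and 1110034G24Rik (0.974), named Shld1 in RefSeq. None is one of the listed fatty acid genes. With centring on the WT mean of each tissue, Cuedc2, Cradd and Cln3 were again among the first 5. No other member came near: r with Ech1 was 0.513 for Echdc2 and between −0.676 and 0.057 for the remaining 7.

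Cradd stood at 12.3%, 14.7% and 16.4% of the WT mean in the striatal cKO libraries and Cuedc2 at 25.2%, 27.5% and 28%. Striatal WT replicate 1 was low for both, at 74.4% and 66.6%, as it was for Ech1 at 73.5%. The log2 fold changes in striatum and cerebellum were −2.79 and −2.74 for Cradd, −1.90 and −1.73 for Cuedc2, −1.90 and −2.03 for Cln3, and −2.42 and −2.73 for 1110034G24Rik. These are descriptions, since the genes were picked for the pattern.

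**Figure D5:**
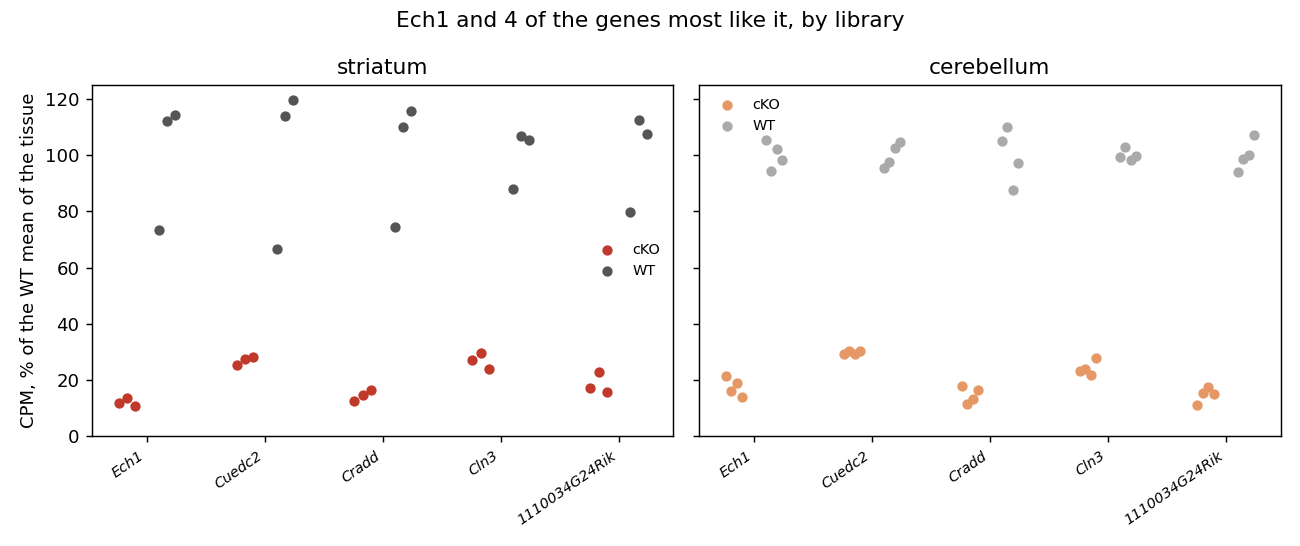
CPM of Ech1 and 4 of the genes most like it in each library, as a percent of the WT mean of the tissue, in striatum (left) and cerebellum (right). Every cKO library lies below every WT library for all 5 genes, and Ech1 has cKO values of 10.7% to 13.4% in striatum and 13.9% to 21.3% in cerebellum.

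Windows around the start were found for these 4 genes, 1 each for Cuedc2 and Cradd, 2 for Cln3 and 3 for 1110034G24Rik. Cuedc2, Cradd and 1110034G24Rik held both motifs, the last of them in 1 of its 3 windows, beside 1.1% of all genes with a window. Cln3 held neither. In Cuedc2 the THAP1 core (TATGGGCA) lay 62 to 55 bases before the start, and in Cradd (TGAGGGCA) it lay 42 to 49 bases after it. In 1110034G24Rik the THAP1 core and the YY1 core had the arrangement found in Ech1, on the same strand and with 3 bases between them. Both stretches are shown on the plus strand of GRCm38.p6, Ech1 at chr7:28825199-28825233 and 1110034G24Rik at chr2:132686826-132686860, with the motifs in capitals.
Ech1: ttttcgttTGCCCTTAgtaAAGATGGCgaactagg
1110034G24Rik: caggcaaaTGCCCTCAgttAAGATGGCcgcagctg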

How the data were processed

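RNA sequencing libraries of 14 mouse brain samples were used. The authors deposited raw read counts per gene symbol for each sample. The submitters' processing notes name the build mm10 and the tools HTSeq 0.6.1p1, DESeq2, STAR and cutadapt 1.13. Annotation, strand setting and STAR version were not given in the sources used here, so counts of overlapping genes are uncertain. The 9 members and all gene lists were chosen with earlier results of these data known.

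Counts were tested with edgeR 4.0.16 in R 4.3.3 (TMM factors, filterByExpr with a minimum count of 10 and minimum total of 15, robust quasi-likelihood fit). Each tissue was fitted separately for genotype, WT libraries for tissue, and all 14 libraries for the interaction. All p-values were adjusted by Benjamini-Hochberg over all genes tested, and 0.05 was the threshold. SE is the size of the log2 fold change over the root of its F statistic, and 95% intervals are that change ± a normal quantile times SE. The F test has few degrees of freedom, so these intervals are somewhat too narrow for 95%. Printed CPM use TMM factors over all 14 libraries, and 9 of 9 members passed the filter in both tissues. By rule, the genes named outside the members were Thap1, neighbours of Ech1 and Echdc2, genes overlapping a member, called genes of the pathway lists (at most 4 a list), called genes of each marker list (at most 2) and the 5 most like Ech1, of which 1 is not reported here. Further marker genes, Acot2, Nr1h3 and the genes of the closing section were named after their values were seen. Coordinates and exon lengths are from GENCODE vM21 (GRCm38), where 89.6% of symbols matched a current symbol and 8.2% a synonym, and start windows are from RefSeq. Alternatives were DESeq2 1.42.0, limma-voom (limma 3.58.1), DESeq2 size factors, no low-count filter, the replicate number as a block, 1 model for all libraries, and leaving out each library. The fits were tested on simulated counts with known changes. Replicate numbers were not taken as pairing the libraries.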

Additional observations from a re-analysis of the deposited data

Results flagged for a closer look

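In cerebellar cKO replicate 2, Dvl2, the gene that shares exon bases with Acadvl, measured 21.7 CPM, apart from 18.8, 18.5 and 19.0 CPM in the other cerebellar cKO libraries, with a gap of 0.85 of the group's range, above Dixon's critical value for 4 libraries. In the same way, Fat2 in cerebellar cKO replicate 3 measured 970 CPM, apart from 863, 855 and 861 CPM in the other cerebellar cKO libraries, and Zyg11a in cerebellar cKO replicate 1 measured 0.094 CPM, which is 2 counts against 1 in each of the others. Chance flags about 1 in 20 groups, and 82 were examined. The log2 fold change of Mal differed between striatum and cerebellum, by −0.70 (adjusted p = 0.0229, edgeR). Ugt8a of the same marker list was also called in that test.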

How the results depend on the processing

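Ech1 kept its direction in both tissues under every alternative run, and leaving out any library left 1 of the 9 genes called in striatum and 2 in cerebellum. The number of genes called between genotypes in striatum, 54 by edgeR, was 153 with DESeq2, 186 with limma-voom and 376 with all 14 libraries in 1 model. Leaving out single libraries gave 3 to 122: 122 without WT replicate 1, 3 without cKO replicate 1 or 3, and 12 without WT replicate 3 or cKO replicate 2. The cerebellar count of 1121 was 251 in that joint model and 739 to 1165 over single leave-outs, and the interaction count of 60 was 228 with DESeq2, 102 with limma-voom and 17 to 193 over leave-outs. The joint model moved the listed pathway genes called to 2 in each tissue, against 0 in striatum and 6 in cerebellum, where leave-outs gave 3 to 6, the lowest without cKO replicate 2. Thap1 in striatum passed without a low-count filter (−1.37), with DESeq2 (−1.37), limma-voom (−1.56) and the joint model (−1.36), and ranged from −1.66 to −1.15 over leave-outs. In cerebellum Thap1 no longer passed with DESeq2 size factors (−0.34), DESeq2 (−0.34) or the joint model (−0.35), and ranged from −0.40 to −0.27 over leave-outs, of which 6 of 8 lost the call (adjusted p up to 0.17): all but those without WT replicate 2 or 4. Small values changed sign: Acadl in striatum with limma-voom (−0.043) and over leave-outs (−0.055 to 0.048), Echdc2 in striatum over leave-outs (−0.14 to 0.29), Acadvl and Hadhb in cerebellum (−0.0038 to 0.061 and −0.045 to 0.018), Ech1 between WT tissues with limma-voom (0.014) and over leave-outs (−0.22 to 0.047), Acadm and Decr1 between WT tissues (−0.11 to 0.0048 and −0.13 to 0.0015) and the interaction of Acadl (−0.085 to 0.030). With the longest transcript Ech1 ranked 1 in striatal WT, 1 in cerebellar WT and 6 in striatal cKO. Libraries with the same replicate number deviated together with correlations of 0.0589 to 0.137 in striatum and 0.0542 to 0.336 in cerebellum, where 3 of 4 pairs were above 0.1. Across the tissues the correlations were −0.0741 to 0.259 in cKO and −0.0754 to 0.123 in WT. None were computed for libraries of unequal number, so these values cannot settle whether the numbers mark pairs or batches. The main fits did not use the numbers as pairing. With the replicate block the striatal count was 15, the cerebellar count 1246, and Echdc2 in striatum had a log2 fold change of −0.018. The block across tissues, added after seeing the data, gave 19 interaction calls, and between WT tissues lost the calls of Acadl (adjusted p = 0.0937) and Hadha (0.128). The cause of these shifts was not tested. Echdc2 had 34 to 75 counts in the striatal libraries.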

Other observations

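The arrangement seen in the Ech1 and 1110034G24Rik windows, a THAP1 core and a YY1 core on the same strand with 3 bases between them, was looked for in all RefSeq windows after it had been seen in Ech1, so the counts below are a description with no test. It occurred in 41 of 21248 windows, or 0.193%, and in 37 of 17570 genes. Of the 36 such genes tested in cerebellum, 22 were called between genotypes (61.1%), 11 lower and 11 higher in cKO, beside 7.59% of all genes. Without Ech1 and 1110034G24Rik it was 20 of 34 (58.8%), 9 lower and 11 higher, and the median log2 fold change was 0.06. Genes that held both motifs in another arrangement were called in 18 of 128 cases (14.1%), and genes with neither or 1 of the motifs in 826 of 11470 (7.2%). In striatum 5 of 35 genes with the arrangement were called (14.3%), or 3 of 33 without Ech1 and 1110034G24Rik (9.09%), beside 0.384% of all genes. Genes with both motifs in another arrangement were called there in 3 of 128 cases (2.34%), and genes with neither or 1 in 37 of 10982 (0.337%). Within 4 pairs of the genes with the arrangement the members share a window, so they do not count as separate cases.

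Both directions held genes with large differences. Aars2, the mitochondrial alanyl-tRNA synthetase, was higher in cKO by 1.12 in striatum and 0.88 in cerebellum on the log2 scale (adjusted p = 0.00527 and 3.14e-09, edgeR). Racgap1, a GTPase-activating protein of cell division, was higher by 0.84 and 1.30 (adjusted p = 0.0431 and 1.75e-10). 9130019O22Rik had log2 fold changes of −2.43 and −1.80 (adjusted p = 0.0264 and 0.000325). Psmb5, a catalytic subunit of the proteasome, fell by 0.78 in cerebellum (adjusted p = 1.52e-05), and its striatal log2 fold change was −0.09 (adjusted p = 0.913). These genes were named after their values had been seen.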
